A study of Mus musculus with 4 samples.

Results

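The Sall1 locus was described from every row of the authors' deposited tables in a window of 2.0 Mb on chromosome 8 (GRCm38, mm10), which begins 544161 bp downstream of the gene's start and so holds Sall1 and its flanks. It held 1539 of the 269406 listed positions and 44 of the 3389 regions of the tables. The window was chosen by measured values, since earlier counts of the same tables had shown many listed positions there. All counts, levels and differences in it are therefore a description, and no test was made of them. Methylation was measured by whole-genome bisulfite sequencing, in which the share of cytosines left unconverted gives the methylation level from 0 to 1. The cells were microglia, the macrophages that live in the brain, sorted from untreated C57BL/6J mice 3 months of age. Of the 4 samples, 2 were wild type (WT) and 2 came from mice that lack the transcription factor IRF8 (IRF8KO). The labels give neither the allele behind the loss of IRF8 nor the number, sex or litter of the animals.

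Sall1 encodes a zinc finger transcription factor that, among the cells of the adult brain, is known as a mark of microglia and is needed to keep their resting identity. SALL proteins repress genes by recruiting the NuRD corepressor complex, and in microglia TGF-beta signals through SMAD factors are known to maintain Sall1. DNA methylation is typically high over most of a mammalian genome, low at promoters rich in CpG, and locally reduced at enhancers bound by transcription factors. The tables hold no mark of enhancers, so the flanks are described here by their methylation and their distance from the Sall1 start alone.

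The table headers give the groups numbers without names, so no genotype was assigned, and they are called the first and the second group. Each value is the authors' fitted level of a group (mu1 and mu2 for a position, meanMethy1 and meanMethy2 for a region) or the difference, positive where the first group was higher. No value per sample was used, so a difference cannot be set against the spread between the 2 samples of a group, and the depth behind it is unknown. Its error is the deposited standard error (SE), and its call is the deposited false discovery rate (FDR) under 0.05. Adjacent positions often share fitted levels, so counts of positions past the FDR are not counts of separate measurements. The site table lists positions with a posterior probability of at least 0.95 for a difference over a threshold. The size of that threshold is not given in the sources used here. Positions not listed have no value here, and smaller differences at them would not be seen. An intermediate level can come from a part of the cells or from a part of the alleles in each cell, which these bulk values cannot tell apart.

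Sall1 (ENSMUSG00000031665.7) lies on the reverse strand from 89027235 to 89044162, so that higher coordinates are upstream of its start at 89044162. It has 4 exons. The sequences that the results below turn on are shown on the forward strand of GRCm38, as read from RefSeq's genome, with each CpG in capitals, since the CpGs are the places where methylation is normally read. Of the regions in intron 2, all lower in the first group, those nearest the start are shown whole, and so is the region before the start. The CpG-dense region past the gene's end and the region with the most negative area score upstream are shown over 300 bases each, and the region with the largest positive difference upstream is shown whole.
Intron 2, chr8:89037268-89037355: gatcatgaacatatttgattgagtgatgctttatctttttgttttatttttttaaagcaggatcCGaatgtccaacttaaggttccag
Intron 2, chr8:89038933-89039009: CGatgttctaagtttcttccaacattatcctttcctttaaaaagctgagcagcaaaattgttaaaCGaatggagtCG
Before the start, chr8:89047460-89047580: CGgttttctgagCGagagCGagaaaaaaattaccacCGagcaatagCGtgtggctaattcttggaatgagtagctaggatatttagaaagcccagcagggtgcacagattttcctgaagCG
Past the end, chr8:89025535-89025834: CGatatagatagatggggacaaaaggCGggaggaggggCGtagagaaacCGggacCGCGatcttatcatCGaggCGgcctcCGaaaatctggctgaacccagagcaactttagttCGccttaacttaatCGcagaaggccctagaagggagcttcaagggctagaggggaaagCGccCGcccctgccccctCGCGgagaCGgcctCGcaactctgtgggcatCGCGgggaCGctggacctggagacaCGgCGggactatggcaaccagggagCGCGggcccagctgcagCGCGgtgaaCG
Upstream, higher in the first group, chr8:89474813-89474962: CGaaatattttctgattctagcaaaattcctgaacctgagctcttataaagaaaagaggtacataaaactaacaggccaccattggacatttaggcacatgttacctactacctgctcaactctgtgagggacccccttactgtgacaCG
Upstream, lower in the first group, chr8:89569499-89569798: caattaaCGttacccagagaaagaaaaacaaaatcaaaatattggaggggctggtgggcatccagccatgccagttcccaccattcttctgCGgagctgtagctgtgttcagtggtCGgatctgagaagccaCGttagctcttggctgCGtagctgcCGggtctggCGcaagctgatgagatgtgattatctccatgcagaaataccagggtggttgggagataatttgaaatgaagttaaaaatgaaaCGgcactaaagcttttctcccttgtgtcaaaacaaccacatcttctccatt

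The capitals show how unevenly CpGs were spread over these regions. The region past the end of the gene held 56 CpGs in 886 bp, or 6.32 per 100 bp, against a median of 1.82 over all deposited regions higher in the first group. The upstream region with the largest positive difference held 2 CpGs in 150 bp.

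Over the window, 3.70% of 41602 tested positions were listed, against 0.63% of 42734461 over the whole table. With an FDR under 0.05 there were 298 positions, or 0.716% of those tested in the window, against 0.118% over the table. As a share of listed positions this was 19.4%, close to the 18.7% of the whole table, so that the window differed in how many positions were listed and little in how many of these passed the FDR. The first group was higher at 1113 listed positions (72.3%), against 61.9% over the table, and lower at 426. It was also higher in 30 of the 44 regions (68.2%), against 53.3% over the table, and lower in 14. The region share turned to 42.1% higher among the 19 regions with at least 3 reference CpGs, and to 50% among the 12 with at least 10 cytosines. Over the table, 1039 regions with at least 3 reference CpGs were higher and 1073 lower, so fewer were higher than lower there too.

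The Sall1 promoter had no listed position. From 1000 bp before the start to 500 bp after it, 75 CpGs of the reference lay in 1501 bp, and 0 positions and 0 regions were listed. The nearest listed positions lay 3615 bp inside the gene and 3209 bp before the start. In the 6823 bp between them, the row numbers of the site table count 892 tested positions, none of which was listed, in sequence with 422 CpGs and a GC content of 58.6%. This stretch held exons 1 and 2, intron 1 and also the other 2 starts that RefSeq gives for Sall1, 650 and 1300 bp downstream of the first. What the methylation level of the promoter was in either group is not given, since unlisted positions carry no value. Nor is it known whether the groups differed there, since a small or uncertain difference is not listed.

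Within the gene, all 73 listed positions were lower in the first group, as were 102774 of 269406 over the table. Of the 73, 51 lay in intron 2, from 89033399 to 89042351, in 3 clusters (positions within 500 bp of each other). The other 22 formed 1 cluster in exon 3. An FDR under 0.05 was found at 8 of the 51, against 18.7% of listed positions over the table. The fitted level of the 51 was 0.201 in the first and 0.545 in the second group (medians over positions). It ran from 0.0806 to 0.336 in the first group and from 0.327 to 0.758 in the second, so that over the whole intron the ranges overlapped only between the second group's lowest and the first group's highest position. These levels are those of the listed positions alone, since the other positions of the intron have no value.

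Intron 2 held all 3 regions of the gene body. In the authors' deposited table, the region nearest the start (89038933 to 89039009, 5.19 kb into the gene) had a mean level of 0.234 in the first and 0.734 in the second group, a difference of -0.501. Of its 6 positions, which hold 2 distinct differences, 4 passed the FDR. The lowest FDR was 4.47e-07 at 89038934, with a difference of -0.519 and an SE of 0.0787. The other two regions lay close together further into the intron. From 89037268 to 89037355 the levels were 0.231 and 0.578, with 1 of 4 positions past the FDR. From 89036940 to 89037129 they were 0.185 and 0.572, with 2 of 8 past it. In each of the 3 regions, every listed position of the first group was below every listed position of the second. The group levels of listed positions overlapped in 0 of the window's 44 regions. Positions are listed for their difference and adjacent ones share values, so this separation is largely set by the listing. Another 11 listed positions, from 89039833 to 89040547, had medians of 0.199 and 0.500 and formed no region, and their lowest FDR was 0.492.

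Listed positions in the coding sequence had smaller differences. Exon 3, the longest, had 22 listed positions from 89031216 to 89031810, all lower in the first group. Their level was 0.574 in the first and 0.829 in the second group (medians), a difference of -0.256 with a median SE of 0.0911. None passed the FDR, the lowest being 0.635, and none of the 44 regions lay there. The UTRs, the other exons and introns 1 and 3 had no listed position.

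**Figure D1:**
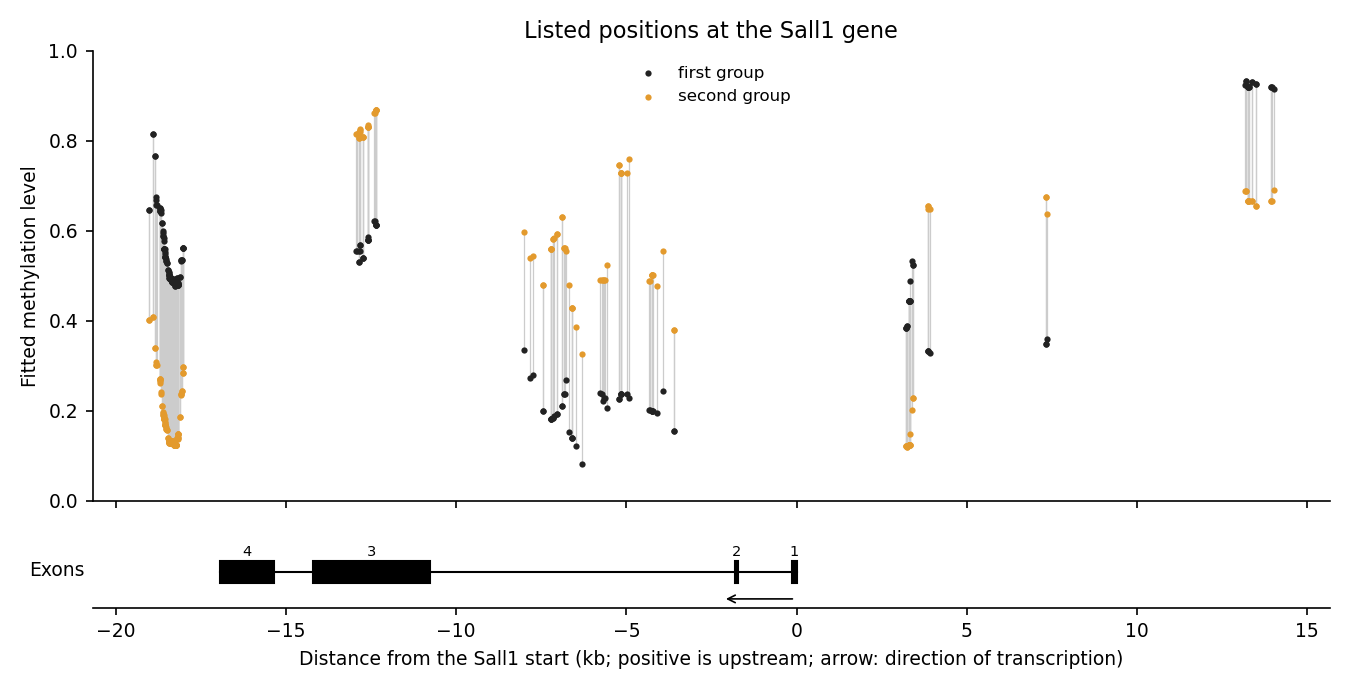
Fitted methylation level (0 to 1) of each listed position in the first and second group against the distance from the Sall1 start in kb, positive upstream, with the 4 exons drawn to scale under it; a grey line joins the 2 groups at a position. Positions in intron 2 and exon 3 are lower in the first group, those past the gene's end and just before its start are mostly higher, and none lies within 3209 bp of the start.

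Directly outside the gene the direction turned. Past its end, 124 listed positions from 89025134 to 89026147 were all higher in the first group, at 0.498 against 0.138 (medians). The region there (89025242 to 89026127) has its midpoint 18.5 kb from the start and stops 1108 bp short of the gene's annotated end. Its mean levels in the authors' deposited table were 0.534 and 0.171, and its 120 listed positions ran from 0.477 to 0.815 in the first group and from 0.123 to 0.408 in the second. Its area score, the sum of the test statistics of its positions, was 455.9, although only 14 positions passed the FDR, the lowest being 0.0247. On the other side, 3.36 kb before the start, the region from 89047460 to 89047580 had mean levels of 0.469 and 0.150, and 1 of its 12 positions passed the FDR (0.0394). Both CpG-rich regions next to the gene were thus at low methylation in the second group and at intermediate methylation in the first.

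Before the start the direction changed again among listed positions, and any unlisted positions between them have no value. Of the 21 positions listed from 89047371 to 89048086, 1 passed the FDR, 17 had more methylation in the first group and 4 had less. These 4 and the next 3, up to 89051523, had medians of 0.332 and 0.655, and none passed the FDR. From 89057325 to 89058172, 13163 to 14010 bp upstream, 17 positions were again higher in the first group, at 0.920 against 0.667, with a lowest FDR of 0.142.

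Upstream of the start, listed positions were dense over 550 kb and then sparse. In each of the 11 bins of 50 kb from the start to 550 kb upstream, between 5.50% and 15.4% of the tested positions were listed. In the next bin the share was 1.42%, and over the 18 whole bins from there to the end of the window it ran from 0 to 1.66%. The number of tested positions per bin was 837 to 1602 in the first set and 563 to 1185 in the second. Downstream, the bin with the gene had 9.55%, the next 2.18%, and the 9 whole bins beyond the gene's own had at most 2.78%. The limits of the 550 kb stretch were set after its values had been seen. It holds no protein-coding gene other than Sall1, and the next one upstream, Tox3, starts 1304 kb from the Sall1 start.

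**Figure D2:**
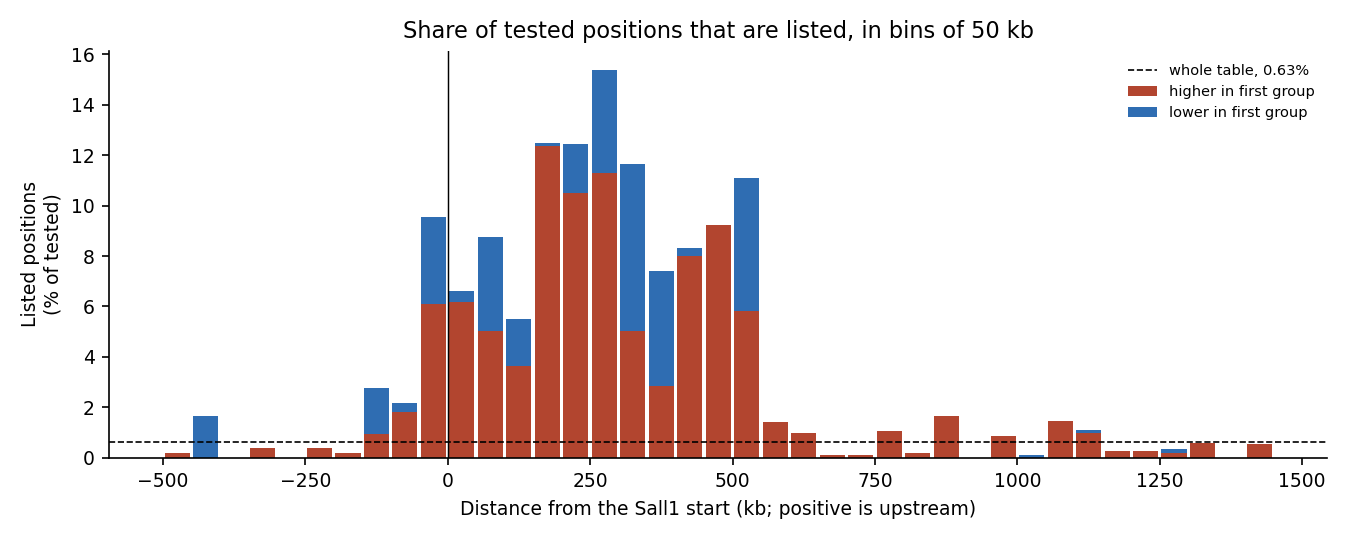
Listed positions as a percentage of tested positions in bins of 50 kb by distance from the Sall1 start (positive is upstream), stacked by direction, with the share over the whole table as a dashed line. The 11 bins from the start to 550 kb upstream stand between 5.50% and 15.4%, against 0.63% over the table, and the bins beyond fall to 1.66% or less.

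Most positions of the 550 kb stretch were higher in the first group. They numbered 852, in 154 clusters (positions within 500 bp of each other), and 163 passed the FDR. Their level was 0.878 in the first group (quartiles 0.819 and 0.914) and 0.569 in the second (0.472 and 0.629). In bins of 50 kb the median of these positions stayed between 0.816 and 0.914 in the first group and between 0.479 and 0.627 in the second. Both levels lay above those of listed positions of this direction over the whole table, where the medians were 0.768 and 0.415. Most of these listed positions were thus high in the first group and intermediate in the second, but not all, as the region 3.36 kb before the start (0.469 and 0.150) shows.

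The other 294 positions were lower in the first group, and were gathered in 26 clusters, with 81 past the FDR. Their level was 0.273 in the first group (quartiles 0.204 and 0.344) and 0.658 in the second (0.606 and 0.703). Over the whole table the medians of listed positions of this direction were 0.414 and 0.784. In the first group the positions of both directions were therefore far apart (0.878 and 0.273), while in the second they were close (0.569 and 0.658). Which positions were listed depends on their difference, and what the unlisted positions of the stretch show was not tested.

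**Figure D3:**
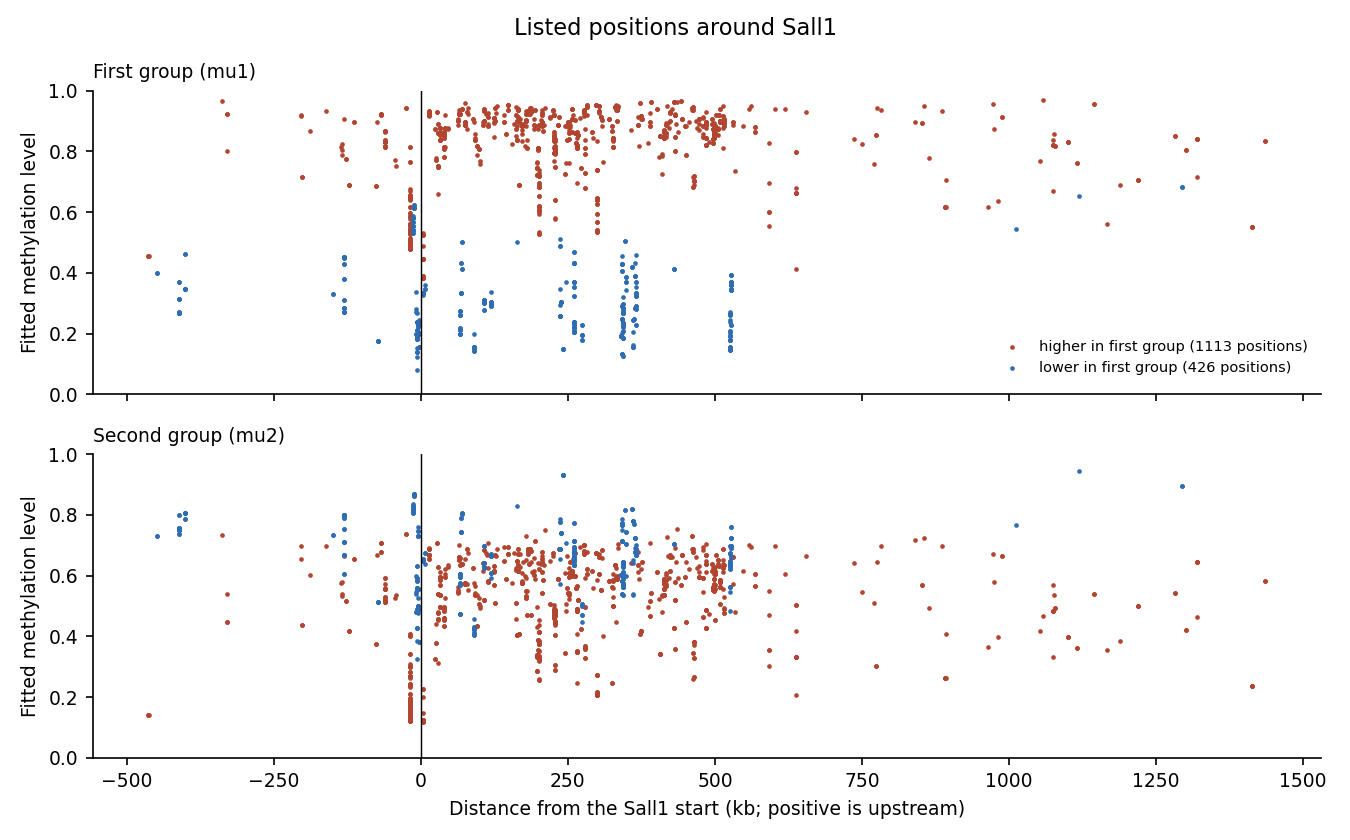
Fitted methylation level of the 1539 listed positions in the first group (top) and the second group (bottom) against the distance from the Sall1 start in kb, positive upstream; red, higher in the first group; blue, lower. Over the 550 kb upstream, the first group splits into a high band and low columns, and most points of the second group lie at intermediate levels.

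The lower positions formed 14 runs, each without a higher listed position within it, of which 9 had at least 10 positions and held 275 of the 294. Unlisted positions inside a run have no value, so a run is not shown to be continuous over its span. These 9 runs, 68 to 526 kb upstream, spanned 223 to 9543 bp. Their median level ran from 0.154 to 0.306 in the first group and from 0.423 to 0.740 in the second. The nearest 20 listed positions higher in the first group around each run (10 a side) had medians of 0.866 to 0.925 in the first group and of 0.558 to 0.639 in the second. Since the runs were picked for being lower in the first group and these neighbours for being higher in it, the gap between them there is largely set by the choice, and unlisted neighbours have no value. In the second group the run's median was above that of these neighbours in 7 runs and below in 2, those at 68 and 90 kb. Positions past the FDR were found in 7 of the 9 runs, and regions in 5.

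**Figure D4:**
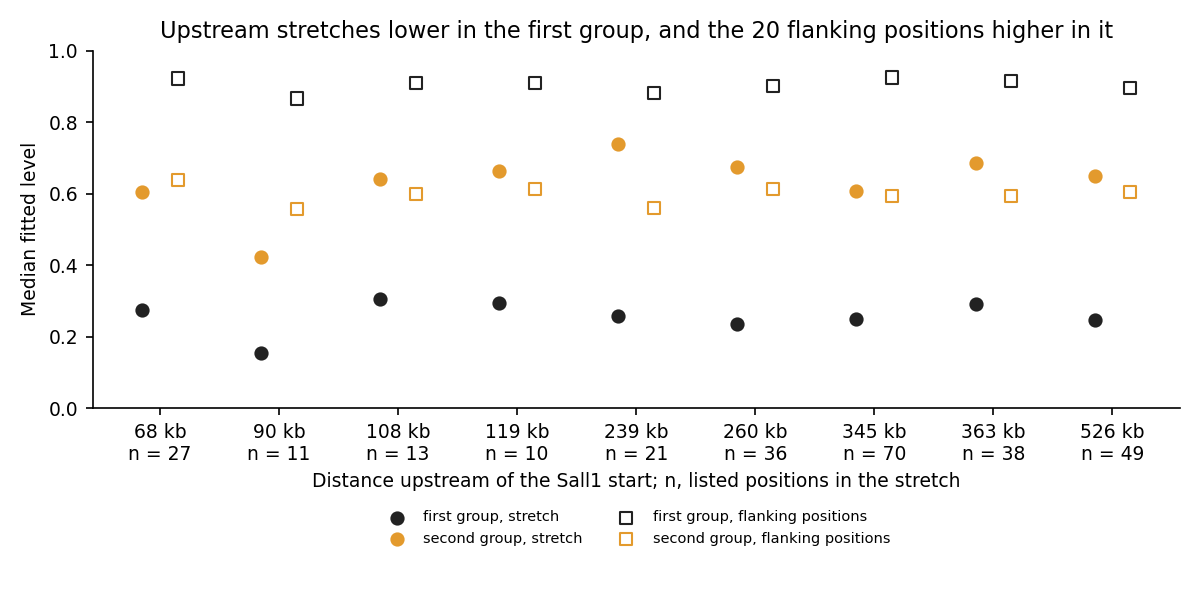
Median fitted level of the 9 upstream runs of positions lower in the first group (filled circles) and of the 20 nearest positions higher in it (open squares), by distance upstream of the Sall1 start in kb. The first group's circles lie at 0.306 or less and its squares at 0.866 or more, while the second group's circles and squares lie between 0.423 and 0.740.

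The regions of the upstream flank were chosen for naming by their area score. Among those lower in the first group, the most negative score in the authors' deposited table was -107.3, from 89569441 to 89569857, 525 kb upstream. Its mean levels were 0.191 and 0.644, and 21 of its 25 positions passed the FDR. The region from 89304251 to 89304659, 260 kb upstream, had levels of 0.229 and 0.656, with 19 of 22 positions past the FDR. A group of 4 regions lay from 340 to 344 kb upstream, and the highest-scoring of them (89387538 to 89387891) had levels of 0.235 and 0.612, with 7 of 22 past the FDR. The regions 360 kb (89403751 to 89404338) and 365 kb upstream (89409070 to 89409449) had first-group levels of 0.250 and 0.291 and second-group levels of 0.763 and 0.690. All 9 lower regions of the stretch held a position past the FDR, as did 79.6% of all deposited lower regions. In the first group none of the 9 was above 0.291.

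Among the upstream regions with more methylation in the first group, the top area score was 86.9, from 89242183 to 89242795, 198 kb upstream. Its mean levels in the authors' deposited table were 0.766 and 0.346, and 12 of its 21 positions passed the FDR. The region from 89271416 to 89271761, 227 kb upstream, had levels of 0.810 and 0.469, but only 1 of its 22 positions passed the FDR. From 89343317 to 89343560, 299 kb upstream, the levels were 0.629 and 0.209, the lowest first-group level among the 27 higher regions of the stretch except the region just before the start. From 89528895 to 89529112, 485 kb upstream, they were 0.831 and 0.452. The largest difference of the 27 higher regions was 0.535, from 89474813 to 89474962, where the levels were 0.962 and 0.427. All 4 positions of this region passed the FDR, and they share 1 fitted difference. That region, 431 kb upstream, was picked after its values were seen.

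**Figure D5:**
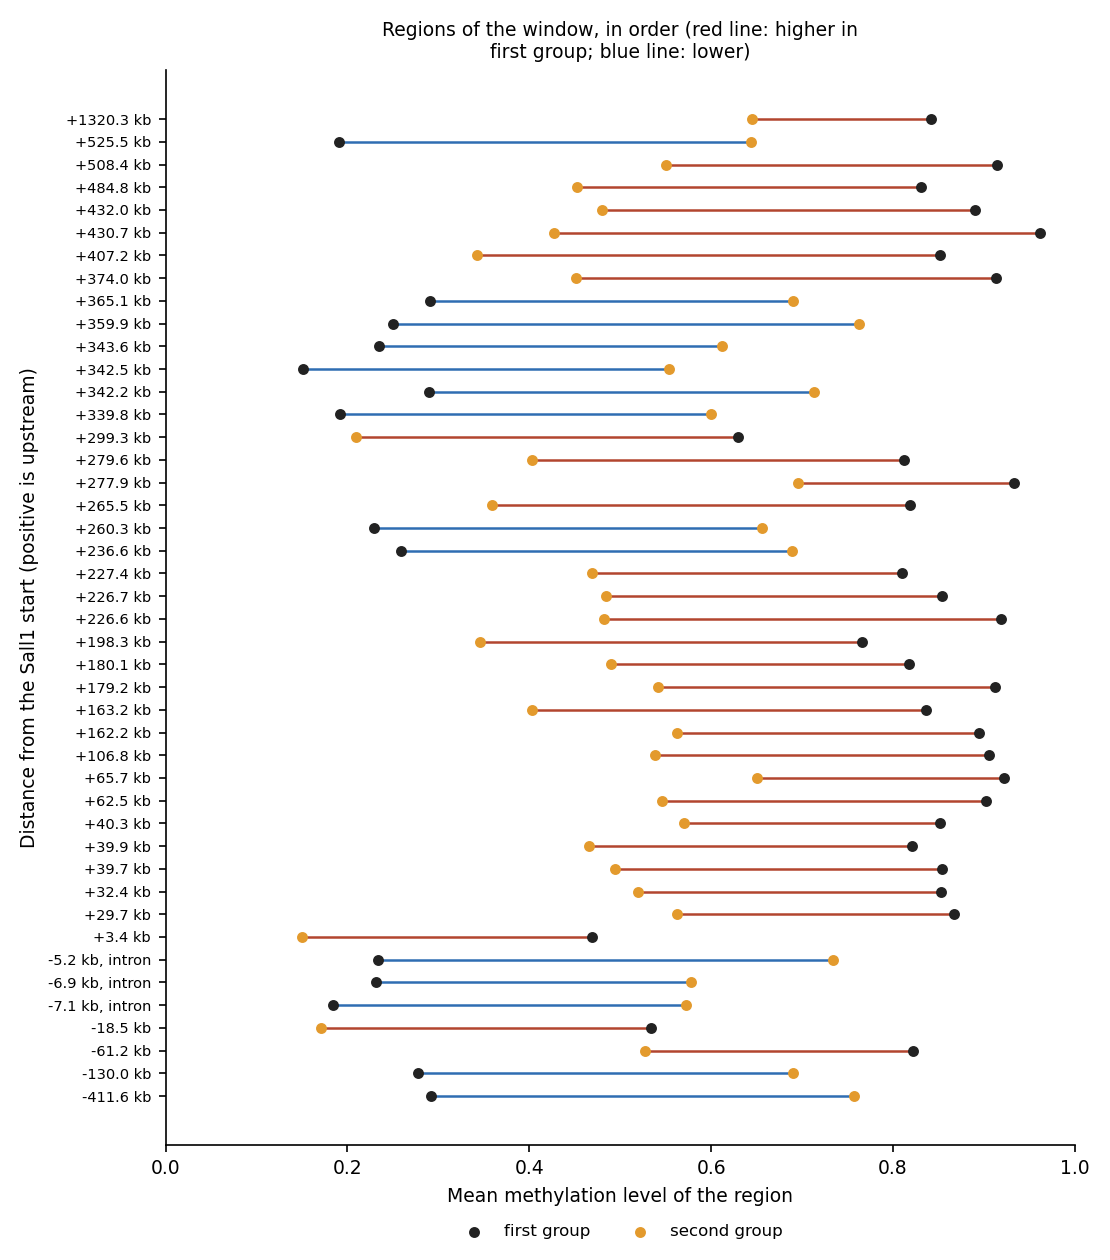
Mean methylation level of the 44 deposited regions in the first (black) and second group (orange), in order of distance from the Sall1 start (positive is upstream); a red line marks a region higher in the first group and a blue line a lower one. The 14 lower regions lie at 0.292 or less in the first group, and the 30 higher ones at 0.469 or more.

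Over the window, the regions showed the same contrast of levels as the positions. They hold 470 of the 1539 listed positions, so this is not a separate observation. The 30 higher regions had a median level of 0.852 in the first and 0.483 in the second group, against 0.740 and 0.311 over all deposited regions of that direction. The 14 lower regions had 0.234 and 0.672, against 0.332 and 0.772. The median absolute difference was 0.383 in the window and 0.405 over the table. The size of the difference was thus alike, while the levels lay higher for the higher regions and lower for the lower ones. A position past the FDR was held by 26 of the 30 higher regions (86.7%) and 13 of the 14 lower ones (92.9%), against 76.3% and 79.6% over the table, so most regions of the whole table held one too.

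The single position with the lowest FDR in the window was 89286604, 242 kb upstream, picked after its values were seen. The authors' deposited table gives it 0.148 in the first and 0.932 in the second group, a difference of -0.784 with an SE of 0.0532 and an FDR of 8.23e-43. The same levels were listed for 5 positions up to 89286619, none of them in a deposited region. The next, 89263712, 220 kb upstream, had 0.914 and 0.506, a difference of 0.408 with an SE of 0.0337 and an FDR of 5.59e-28. Neither 89286604 nor 89263712 lies on a CpG of the reference. The positions 89286609 and 89286618, which share the levels of 89286604, do, with FDRs of 2.56e-15 and 9.8e-16.

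Positions off a reference CpG made up 21.6% of those listed in the window, against 22.0% over the table. In the window 111 of these 332 positions (33.4%) passed the FDR, and 187 of the 1207 at a CpG (15.5%). Over the table the shares were 23.6% and 17.3%. Fewer than 3 reference CpGs were found in 22 of the 30 higher and 3 of the 14 lower regions, against 42.5% and 32.1% of the regions of each direction over the table. Among positions at a reference CpG, 849 (70.3%) were higher in the first group, so that the direction of most positions was the same there. The part of positions off a CpG in the region results was not tested.

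The downstream flank, 527234 bp, had 4 regions in all. Besides the region past the gene's end, 1 was higher in the first group, 61.2 kb from the start (88982913 to 88982987), at 0.822 against 0.527. The 2 lower ones lay 130 kb from the start (88914171 to 88914228, 0.278 and 0.690, no position past the FDR) and within Snx20 (88632365 to 88632785, 0.292 and 0.757, 8 of 16 positions past the FDR). Snx20, a sorting nexin gene of leukocytes, had 16 listed positions, all lower in the first group. Nod2, a cytosolic sensor of bacterial cell wall, had none, Cyld, a deubiquitinase that restrains NF-kB signalling, had 4, and Nkd1, an inhibitor of WNT signalling, had 3. All positions of Cyld and Nkd1 were higher in the first group and none passed the FDR.

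Beyond 550 kb upstream, 86 positions were listed over 905839 bp, or 0.572% of those tested, near the share of the whole table. Of these, 82 were higher in the first group, at 0.822 against 0.496, and 16 passed the FDR. Tox3, a gene for a nuclear factor of the HMG box family, held 9 listed positions, 2 of them past the FDR. The only region beyond 550 kb upstream lay outside Tox3, 1320 kb from the Sall1 start (90364382 to 90364515). It had levels of 0.842 and 0.645 and no position past the FDR. At the window's edges, the first listed position inside was 88581117 (0.454 and 0.140) and the last outside below it 88452967 (0.633 and 0.400). At the other edge they were 90479144 inside (0.833 and 0.581) and 90557926 outside (0.814 and 0.580).

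The sequences of the regions were searched on both strands for 9 motifs of factors known in microglia. The element at which IRF8 binds together with the ETS factor PU.1 (GGAA and GAAA with any 2 bases between) was found in 1 of the 14 lower regions and in 0 of the 30 higher ones. Over all deposited regions it was found in 17.6% of the lower and 2.16% of the higher. In windows of 300 bp around the midpoints the counts were the same in the Sall1 window, and the shares were 21.3% and 2.38% over the table. The element that IRF factors bind alone (GAAA, any 2 bases, GAAA) was found in 1 lower and 1 higher region, against 99 of 1581 lower and 65 of 1808 higher regions over the table. In the 300 bp windows it was found in 0 lower and 2 higher ones, against 6.39% and 4.37%. The region with the composite element, 365 kb upstream, is shown over 300 bases with the element in capitals, read on the forward strand, where it is the reverse complement.
Upstream, lower in the first group, chr8:89409070-89409369: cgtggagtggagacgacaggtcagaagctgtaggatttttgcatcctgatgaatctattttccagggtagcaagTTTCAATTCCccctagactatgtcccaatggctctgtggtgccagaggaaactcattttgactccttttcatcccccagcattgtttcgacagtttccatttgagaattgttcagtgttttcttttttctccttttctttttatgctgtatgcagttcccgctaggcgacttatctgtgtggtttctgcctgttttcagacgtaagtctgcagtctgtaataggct

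The element lies at 89409144. Of the other motifs, the RUNX site (TGTGGTT) was found in 2 of the 14 lower regions, against 4.81% of all lower regions, and in 0 of the 30 higher ones, against 9.18%. The PU.1 site (GAGGAAGT, which shares GGAA with the composite element) and the SMAD site (GTCTAGAC) were found in none of the 44 regions, against 2.60% and 0.387% of all higher regions and 1.96% and 0.316% of all lower ones. Among the 30 higher regions, 3 held a CEBP site (TTGC, any 2 bases, AA), 3 an AP-1 site (TGA, any base, TCA), 3 a MAF motif (TGCTGAC) and 2 a MEF2 site (CTA, any 4 bases, TAG). Over all higher regions the shares were 14.6%, 12.9%, 7.85% and 4.15% in that order. Among the 14 lower ones, 1 held an AP-1 site, against 7.53% of all lower regions. None held the CEBP, MAF or MEF2 motif, against 9.23%, 5.88% and 3.16%. With so few regions these counts are a description of the letters present.

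Other regulators of microglial identity had fewer regions than Sall1. Since Sall1 was chosen for its many listed positions, this is largely set by the choice. Of 16 such genes, fixed as a list with earlier results known, 4 had a region within 10000 bp, against 9.19% of 21951 protein-coding genes. Gene length was not matched in this count. Sall1 itself had 5 by the same count. Its paralogs Sall2, Sall3 and Sall4 had none, and the 12 positions listed at Sall3 were all lower in the first group with none past the FDR. Smad3, which carries TGF-beta signals to the nucleus, had 3 regions, to which the authors' deposited table gives differences of -0.404, 0.413 and 0.402. Runx1, a transcription factor of blood cells, had 2, with -0.459 and 0.399. Mef2c, a transcription factor of microglia and neurons, had 3, with -0.389, 0.436 and -0.469. Irf8 had 1, with 0.275. Regions of both directions were therefore found at Smad3, Runx1 and Mef2c, as at Sall1. Of the 2017 protein-coding genes with a region within 10000 bp, 1135 had a higher and 1028 a lower one. Most of these genes thus had regions of 1 direction only, as any gene with 1 region must. Tgfb1, Tgfbr1, Tgfbr2, Smad2, Smad4, Spi1, Cebpa and Mef2a were among those of the list with no region.

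Of 13 genes for subunits of NuRD, the complex through which SALL proteins repress, 2 had a region within 10000 bp, against 9.19% of all protein-coding genes. Gene length was not matched here either. Hdac1, a histone deacetylase, had 1 in the gene, at 0.414 in the first and 0.769 in the second group in the authors' deposited table. Mta3, a subunit with a bromo-adjacent homology domain, had 1 outside the gene, at 0.771 and 0.261. The other genes (Hdac2, Chd3, Chd4, Mbd2, Mbd3, Mta1, Mta2, Rbbp4, Rbbp7, Gatad2a and Gatad2b) had none.

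To find genes with a like pattern, each deposited region was given to the protein-coding gene with the nearest start. Of 2283 genes with a region, Sall1 had 42, and the next highest number was 15, at Prpf18, a splicing factor gene. At Prpf18, 12 of 13 regions outside the gene were lower in the first group. The Sall1 locus was chosen for its many listed positions in the same data, so its high number is no separate result. The nearest start also gave Sall1 regions up to 525 kb away, in a stretch without another protein-coding gene. Within 10000 bp of the gene, Sall1 had 5 regions. A gene was called like Sall1 if it had at least 2 regions inside it, all lower in the first group, and at least 2 outside, over 50% of them higher. Sall1 met this with 3 lower regions inside and 29 higher and 10 lower outside. The rule was set with earlier results known, so Sall1 meeting it is no support for the pattern. Genes with few regions cannot meet it, and how many of the 2283 had enough was not counted. Only Gramd1b, a gene for a sterol transfer protein on chromosome 9, also met it, with 2 lower regions inside and 2 higher outside. Its levels inside were 0.277 and 0.802 and those outside 0.681 and 0.222 (medians of the first and second group). The measure rests on the group levels of 2 groups and says nothing of variation among samples.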

How the data were processed

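Whole-genome bisulfite sequencing was made from 2 WT and 2 IRF8KO samples of sorted microglia. Per the labels, 50 ng of DNA from 40000 cells was used, 8 PCR cycles amplified it, and reads were 75 bp, paired-end. The submitters' processing notes name Trim Galore, Bismark and mm10, without their roles; their versions, the caller and the test were not given in the sources used here.

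Both tables are the authors' deposited comparison of the groups. Levels, dispersions and posteriors are deposited as fractions from 0 to 1, p-values and FDR as deposited, differences, SE, test statistics and area scores as deposited scores, and the number of cytosines per region as a deposited count. Per-sample columns left unused numbered 0. The difference equals the first minus the second group's level in every row.

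From these, positions were counted by part of the locus (GENCODE M21), with regions placed by their midpoint and distances taken from the start of the gene's only GENCODE transcript. Tested positions were read from the row numbers of the site table, which follow position, by interpolation between listed rows. Read depth is unknown, so no interval that needs it was computed. Adjacent positions share values: 486 of the window's 516 adjacent pairs (1 bp apart) had the same difference. CpGs and motifs were read from GRCm38 with Python 3.11.15, pandas 2.3.3 and numpy 2.4.6; shares have exact (Clopper-Pearson) intervals from scipy 1.17.1. Counting steps were tested on simulated data. No test was added. Some items withheld for evaluation are not reported here. Regions named were those of the gene body and, in each flank and direction, the 5 with the largest absolute area score; further ones are marked as picked later. The members, gene lists and rules were chosen with earlier results of these data known.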

Additional observations from a re-analysis of the deposited data

How the results depend on the processing

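Of 26 alternatives, 14 left a result within 1.5 times its count or within its 95% interval, and the rest are given here. The 298 positions past the FDR became 148 with an FDR under 0.01, 57 under 0.001, 187 at reference CpGs, 118 with a dispersion of their own and 104 as clusters; each setting admits fewer positions or groups them. The 44 regions became 12 with at least 10 cytosines and 19 with at least 3 reference CpGs. The share of regions higher in the first group was 68.2% (Clopper-Pearson interval 52.4 to 81.4, counting error only). Such intervals take regions or positions as independent, although they were chosen through their values and adjacent positions share levels. A share called unchanged by its interval is therefore a description. The share of regions became 50% with at least 10 cytosines and reversed to 42.1% (20.3 to 66.5) with at least 3 reference CpGs. Over the table, 1039 regions with at least 3 reference CpGs were higher and 1073 lower. The cause of the reversal was not tested. The share of positions higher in the first group, 72.3%, was 65.8% past the FDR, 68.7% with their own dispersion and 85% as clusters; these settings were added after the data were seen. No paired analysis was possible because only group levels were used, without per-sample columns; a coverage minimum and fits without each replicate were not run for the same reason.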
